A study of Mus musculus with 6 samples.

Results

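The genes described here are 31 genes of the unfolded protein response and the integrated stress response, out of 18193 genes measured in primary mouse fibroblasts. They were chosen as a list of gene symbols, with earlier results of these data known, and the rule itself uses no measured value: 14 endoplasmic reticulum (ER) chaperones and folding enzymes, 6 genes of ER-associated degradation, 4 genes of the stress sensors with their factor Xbp1, and 7 genes of the ATF4 and CHOP branch. All 31 were on the array, with 74 probe sets between them, and each gene was read from its probe set of highest mean over the 6 arrays. The samples were 3 Delta9 cultures, which carry an altered allele of Lmna (the lamin A/C gene), and 3 wild-type (WT) cultures, 1 Affymetrix array each. Cells of both groups were of mixed strain C57bl6X129S3/J, came from siblings, were used at passage 3 and had no serum for 72 hours before RNA extraction. The labels give neither the number of copies of the allele nor how many animals the cultures came from, so p-values reflect only how far these samples scatter. The donors are adult in the labels but post-natal in the design text. The allele is known as a partial deletion that shortens lamin A and causes a progeria-like disease in mice.

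Proteins that enter the ER are folded by chaperones, of which BiP, encoded by Hspa5, is the most studied. When unfolded proteins accumulate, the sensors IRE1 (Ern1), ATF6 and PERK (Eif2ak3) raise chaperone and degradation genes through spliced XBP1 and cleaved ATF6, while PERK lowers translation and favours that of ATF4. ATF4 is shared with the other kinases of the integrated stress response and drives amino acid genes and the factor CHOP (Ddit3). Fibroblasts are secretory cells that fold large amounts of collagen, so they express this machinery at rest.

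The ER stress element, a motif bound by ATF6 together with the CCAAT-binding factor NF-Y, links the chaperone genes, and it was searched for in RefSeq promoters (GRCm38.p6, 250 bases before to 50 after the start, both strands). Of the 31 genes 27 had a promoter there; Hyou1, Atf6, Derl1 and Manf did not. The full element, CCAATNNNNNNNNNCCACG, was found in 9 of 27 promoters (33.3%), those of Hspa5, Hsp90b1, Dnajc3, Calr, Canx, Pdia6, Creld2, Syvn1 and Derl3, against 39 of 32851 promoters in all (0.119%). The genes are textbook targets, so this is a description of the set. Of these, 6 are shown as examples on the gene's own strand, those of chaperones, of a co-chaperone, of both lectins and of the ligase Syvn1, with the fixed letters of the element in capitals; where it lies on the opposite strand these read CGTGG and ATTGG.
Hspa5 (chr2:34772013-34772055, +): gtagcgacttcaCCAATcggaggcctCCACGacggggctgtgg
Hsp90b1 (chr10:86705521-86705668, −): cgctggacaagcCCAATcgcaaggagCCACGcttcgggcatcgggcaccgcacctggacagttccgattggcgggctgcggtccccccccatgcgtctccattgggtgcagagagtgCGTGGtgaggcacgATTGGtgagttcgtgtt
Dnajc3 (chr14:118937815-118937857, +): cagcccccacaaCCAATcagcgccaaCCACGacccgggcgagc
Calr (chr8:84847063-84847105, −): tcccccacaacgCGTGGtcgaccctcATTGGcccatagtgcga
Canx (chr11:50325788-50325830, −): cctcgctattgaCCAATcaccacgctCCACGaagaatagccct
Syvn1 (chr19:6046520-6046562, +): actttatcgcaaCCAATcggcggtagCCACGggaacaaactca

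Shorter motifs and a second element were searched for as well. The amino acid response core TGATGNAA, bound by ATF4 with C/EBP partners, lay in the promoters of Chac1, Asns, Trib3 and Herpud1, 4 of 27 (14.8%), against 3.97% of all promoters. A second ER stress element, ATTGGNCCACG, was searched for after the others and lay in those of Herpud1 and Dnajb11, against 0.0365% of all. The shorter CCACG, which is part of both stress elements, lay in 22 of 27 (81.5%), against 32.8% of all. The UPR element core TGACGTGG lay in 0 of 27, against 0.676% of all. The sites of the genes with the lowest adjusted p of the ATF4 and CHOP branch, Chac1 and Asns, and the second element of Herpud1 follow, with the fixed letters in capitals; that of Chac1 lies on the opposite strand.
Chac1 (chr2:119351037-119351068, +): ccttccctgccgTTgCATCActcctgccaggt
Asns (chr6:7693213-7693244, −): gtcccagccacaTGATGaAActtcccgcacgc
Herpud1 (chr8:94386365-94386399, +): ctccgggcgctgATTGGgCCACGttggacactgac

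Lmna was read as a check of the labels. Its brightest probe set gave 7.07, 6.95 and 6.11 (log2) in Delta9 and 8.35, 8.89 and 8.78 in WT. The groups did not overlap and differed by -1.96 (SE 0.28, limma adjusted p 0.0899). Even with this difference, Lmna missed the adjusted threshold applied below to the stress response genes. Whether the Lmna probe set lies in the deleted part was not determined. Fibroblast markers were bright in all 6 cultures, with a mean of 10.49 to 10.70 in Delta9 and 10.89 to 11.10 in WT (log2, 9 genes). Macrophage markers were bright as well, and their values are given beside the results they move with. In bulk samples a smaller share of cells of a type and less RNA per cell cannot be told apart. On Delta9 replicate 3 and WT replicate 1 the poly-A spike-in controls, which are added to the RNA before labelling, averaged 4.87 and 4.55 log2, against 5.25 to 5.67 on the other 4 arrays. These 2 arrays stand apart for many genes, and values with and without them are given below.

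Differences of the stress response genes, Delta9 minus WT, ran from -0.79 to 0.44 log2. None of the 31 passed an adjusted p of 0.05 (limma, Benjamini-Hochberg over all genes, background 11 of 18193, or 0.0605%). The lowest adjusted p was 0.360, for Chac1. With 3 arrays a group, a gene that missed this threshold cannot be called unchanged. The mean was lower in Delta9 for 25 genes and higher for 6, where 53.2% of all genes had lower means. The median difference, log2 of Delta9 minus log2 of WT, was -0.18, against -0.01 over all genes. At an unadjusted p under 0.05 there were 5 genes, all lower in Delta9: Chac1, Ern1, Hyou1, Hsp90b1 and Dnajc3. That is 16.1% of the set, against 10.6% of all genes in either direction, 6.06% lower and 4.54% higher. The 3 Delta9 values and the 3 WT values did not overlap for 7 genes (22.6%, against 17.3% of all), these 5 and Sel1l lower (9.99% of all) and Atf6 higher (7.27% of all). Among the 4549 brightest genes, which hold 25 of the 31, the share past an unadjusted p of 0.05 was 14.3% and the share without overlap 22.1%, while 47.1% had lower means.

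**Figure D1:**
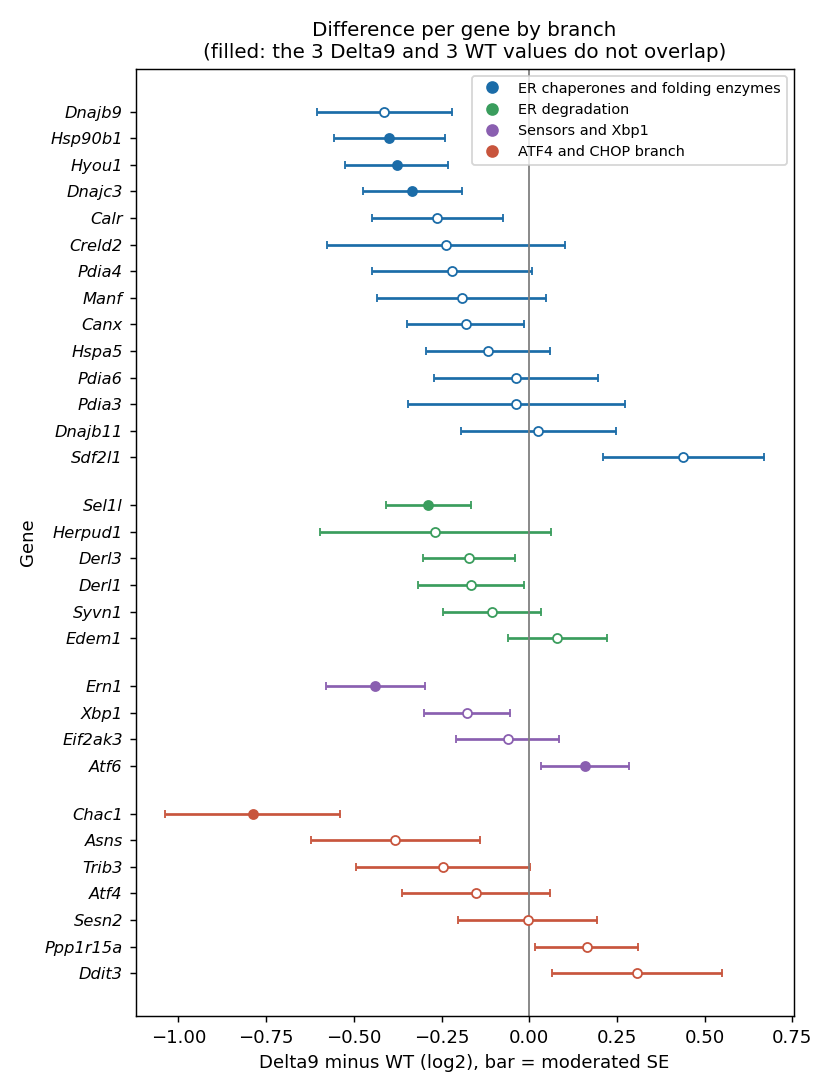
Difference between Delta9 and WT (log2, x axis) for each of the 31 genes, grouped by branch; bars are the moderated standard error and filled points mark genes whose 3 Delta9 and 3 WT values do not overlap. Differences run from -0.79 (Chac1) to 0.44 (Sdf2l1), and most lie between -0.45 and 0.

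The count and the median depended on single arrays. Without Delta9 replicate 1 or replicate 2 the count at an unadjusted p under 0.05 was 2 in each case (backgrounds 7.84% and 8.31%), and without WT replicate 2 it was 3 (background 7.71%). Without WT replicate 3 the count at an unadjusted p under 0.05 was 1 (background 7.69%) and the median -0.06. Without Delta9 replicate 3 they were 6 (background 13.7%) and -0.05, and without WT replicate 1 they were 6 (background 11.2%) and -0.29.

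Among the ER chaperones and folding enzymes, 12 of 14 had lower means in Delta9, with a median difference of -0.21, and 0 passed the adjusted threshold (limma; 3 lower and 0 higher at an unadjusted p under 0.05). Hspa5, the main ER chaperone, read 11.86, 11.86 and 11.34 (log2) in Delta9 and 11.56, 11.93 and 11.92 in WT. Its groups overlapped, and the difference of -0.12 (SE 0.18, limma adjusted p 0.847) was smaller than its error. Hsp90b1, the ER member of the HSP90 family, read 9.92, 10.04 and 9.64 in Delta9 and 10.05, 10.28 and 10.47 in WT, where the lowest WT value lay just above the highest Delta9 value. It differed by -0.40 (SE 0.16, limma adjusted p 0.443), which is 1.32-fold.

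Hyou1, a large HSP70-type chaperone that helps BiP exchange its nucleotide, read 7.73, 7.74 and 7.98 (log2) in Delta9 and 8.37, 8.05 and 8.17 in WT. All 3 Delta9 values were below the WT values, with a difference of -0.38 (SE 0.15, limma adjusted p 0.434). Its highest value was on WT replicate 1, an array on which Hspa5 was low. Dnajc3, a co-chaperone of BiP also known as an inhibitor of PERK, read 7.75, 7.63 and 7.87 in Delta9 and 8.07, 7.94 and 8.25 in WT, also without overlap. It differed by -0.33 (SE 0.14, limma adjusted p 0.470).

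The other 10 chaperone genes had differences from -0.41 for Dnajb9 to 0.44 for Sdf2l1. Dnajb9, a BiP co-chaperone that binds IRE1, averaged 7.81 ± 0.34 in Delta9 and 8.23 ± 0.12 in WT (log2, SD, n = 3 each), with Delta9 replicate 3 at 8.20 among the WT values of 8.10 to 8.34. Sdf2l1, a luminal partner of the BiP co-chaperones, went the other way, at 6.04 ± 0.25 in Delta9 and 5.60 ± 0.38 in WT (SD, n = 3 each). WT replicate 3 was the low one at 5.17, and without it the difference was 0.22. The lectin chaperones Calr and Canx, which hold glycoproteins, differed by -0.26 and -0.18. The disulfide isomerases Pdia3, Pdia4 and Pdia6 differed by -0.04, -0.22 and -0.04, and the co-chaperone Dnajb11 by 0.03. The secreted stress proteins Manf and Creld2 differed by -0.19 and -0.24, with errors (SE 0.24 and 0.34) as large as the differences.

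For the ER degradation genes 5 of 6 had lower means in Delta9 (median -0.17), and 0 passed at the adjusted or the unadjusted threshold (limma). Sel1l, the adaptor of the HRD1 ubiquitin ligase, read 8.09, 8.14 and 8.05 (log2) in Delta9 and 8.25, 8.44 and 8.45 in WT. The groups did not overlap and each was tight, with a difference of -0.29 (SE 0.12, limma adjusted p 0.470). Its ligase Syvn1, the mouse HRD1, differed by only -0.11 (SE 0.14), and Edem1, which passes misfolded glycoproteins to degradation, by 0.08 (SE 0.14).

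Derl1, a membrane channel component of the degradation complex, read 9.49, 9.49 and 9.94 in Delta9 and 9.88, 9.77 and 9.76 in WT (log2). Delta9 replicate 3 was the highest of the 6, so the groups overlapped (-0.17, SE 0.15, limma adjusted p 0.731). Its relative Derl3 was dim, at 4.06, 3.73 and 3.81 in Delta9 and 4.01, 3.98 and 4.13 in WT, close to the array medians of 3.36 to 3.43. Derl3 differed by -0.17 (SE 0.13, limma adjusted p 0.679). Herpud1, an ER membrane protein that recruits the ligase, spanned 7.27 to 8.12 in Delta9 and 7.48 to 8.52 in WT, with Delta9 replicate 3 and WT replicate 1 far below the others of their groups (-0.27, SE 0.33).

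Of the 3 sensors, Ern1 and Eif2ak3 had lower means in Delta9 and Atf6 a higher one. None passed the adjusted threshold (limma), and the sensors were not tested against each other. Ern1, which encodes the kinase and RNase IRE1 alpha, read 5.85, 5.68 and 5.82 (log2) in Delta9 and 6.11, 6.18 and 6.38 in WT, with a gap between the groups wider than the spread of Delta9. It differed by -0.44 (SE 0.14, limma adjusted p 0.362), or 1.36-fold. Atf6, the membrane-bound factor, was slightly higher in Delta9, at 7.29, 7.21 and 7.10 against 7.03, 7.05 and 7.05 in WT. Its groups did not overlap either, yet the difference was 0.16 (SE 0.13, limma adjusted p 0.691). Eif2ak3, the kinase PERK, averaged 6.24 ± 0.18 in Delta9 and 6.30 ± 0.08 in WT (SD, n = 3 each) and differed by -0.06 (SE 0.15). Xbp1, whose RNA is spliced by IRE1, read 9.71, 9.68 and 9.52 in Delta9 and 9.66, 9.88 and 9.90 in WT, a difference of -0.18 (SE 0.12, limma adjusted p 0.647). Spliced and unspliced Xbp1 were not told apart by these values.

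In the ATF4 and CHOP branch, 5 of 7 genes had lower means in Delta9 (median -0.15) and 0 passed the adjusted threshold (limma; 1 lower and 0 higher at an unadjusted p under 0.05). Chac1, an enzyme that breaks down glutathione and is induced through ATF4, read 7.18, 7.53 and 6.84 (log2) in Delta9 and 7.61, 7.94 and 8.36 in WT. Its groups did not overlap, and its difference of -0.79 (SE 0.25, limma adjusted p 0.360), or 1.73-fold, was the largest of the 31. Asns, asparagine synthetase, read 9.51, 9.74 and 9.07 in Delta9 and 9.40, 9.93 and 10.14 in WT. WT replicate 1 lay below the highest 2 Delta9 values, and the difference was -0.38 (SE 0.24, limma adjusted p 0.616).

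Atf4 itself read 10.59, 10.77 and 10.08 (log2) in Delta9 and 10.34, 10.74 and 10.82 in WT, with a difference of -0.15 (SE 0.21, limma adjusted p 0.830). The 2 low values were on Delta9 replicate 3 and WT replicate 1. Ddit3, the pro-apoptotic factor CHOP, read 9.36, 9.33 and 9.19 in Delta9 and 9.24, 9.30 and 8.41 in WT. The value of WT replicate 3 stood alone below the other 5, which lay between 9.19 and 9.36, and the difference of 0.31 (SE 0.24, limma adjusted p 0.691) was 0.02 without that array. Ppp1r15a, the phosphatase subunit GADD34 that restores translation, differed by 0.16 (SE 0.15), the pseudokinase Trib3 by -0.25 (SE 0.25) and Sesn2, a stress-induced inhibitor of mTORC1, by less than 0.01 (SE 0.20).

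**Figure D2:**
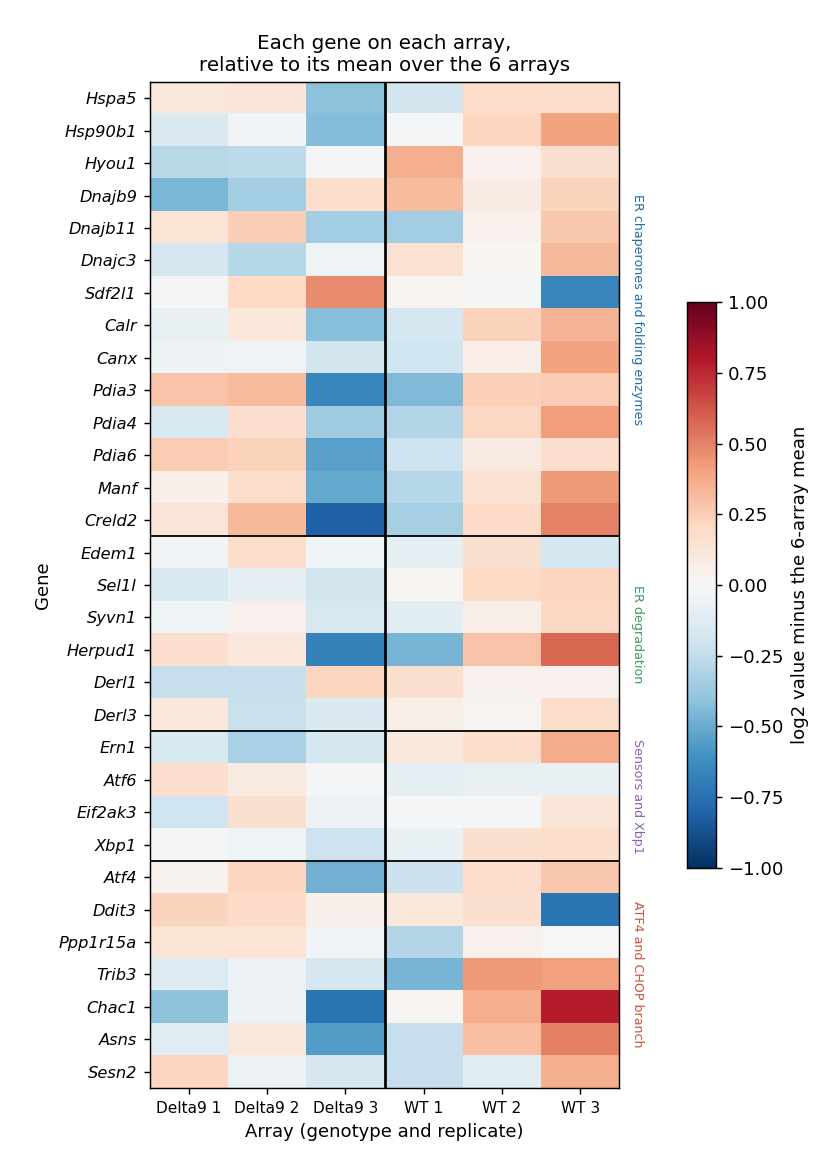
Each of the 31 genes (rows, grouped by branch) on each of the 6 arrays (columns, Delta9 left of WT), as the log2 value minus the gene's mean over the 6 arrays; red is above and blue below that mean. Delta9 3 and WT 1 are both blue for most chaperone and ATF4 branch genes, and WT 3 is red for most rows and darkest blue for Sdf2l1 and Ddit3.

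Arrays of 1 genotype differed among themselves for many of these genes. Delta9 replicate 3 and WT replicate 1 gave the lowest pair of values for 17 of the 31 genes (54.8%), against 19.3% of all genes and 31.8% of the 4549 brightest. The share was similar, 79 of 149 (53.0%), in the further genes of the same pathways described below. These 2 arrays gave the highest pair for 1 gene, Derl1 (9.58% of all genes). The pair was lowest for 9 of 14 chaperone genes, 5 of 7 ATF4 and CHOP branch genes, 2 of 6 degradation genes and, in the sensor group, only for Xbp1. The largest such gaps, mean of these 2 arrays minus mean of the other 4, were -0.85 log2 for Creld2 and for Herpud1 and -0.82 for Pdia3. Hyou1, Dnajb9, Sdf2l1, Derl1, Dnajc3 and Ddit3 were on average higher on the 2 arrays than on the other 4, by 0.08 to 0.37. Among the 9 genes with the ER stress element the pair was lowest for 6, and among the 18 promoters without it for 10.

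The mean of the chaperone list, relative to its 6-array mean, was -0.03, 0.07 and -0.29 in Delta9 and -0.12, 0.12 and 0.24 in WT. For the ATF4 and CHOP branch it was -0.01, 0.07 and -0.30 in Delta9 and -0.19, 0.19 and 0.23 in WT. In both lists Delta9 replicate 3 was the lowest array, WT replicate 1 the next lowest, and WT replicate 3 the highest. The degradation list ran from -0.16 to -0.03 in Delta9 and from -0.07 to 0.17 in WT, and the sensor list from -0.12 to -0.03 in Delta9 and from -0.02 to 0.15 in WT.

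**Figure D3:**
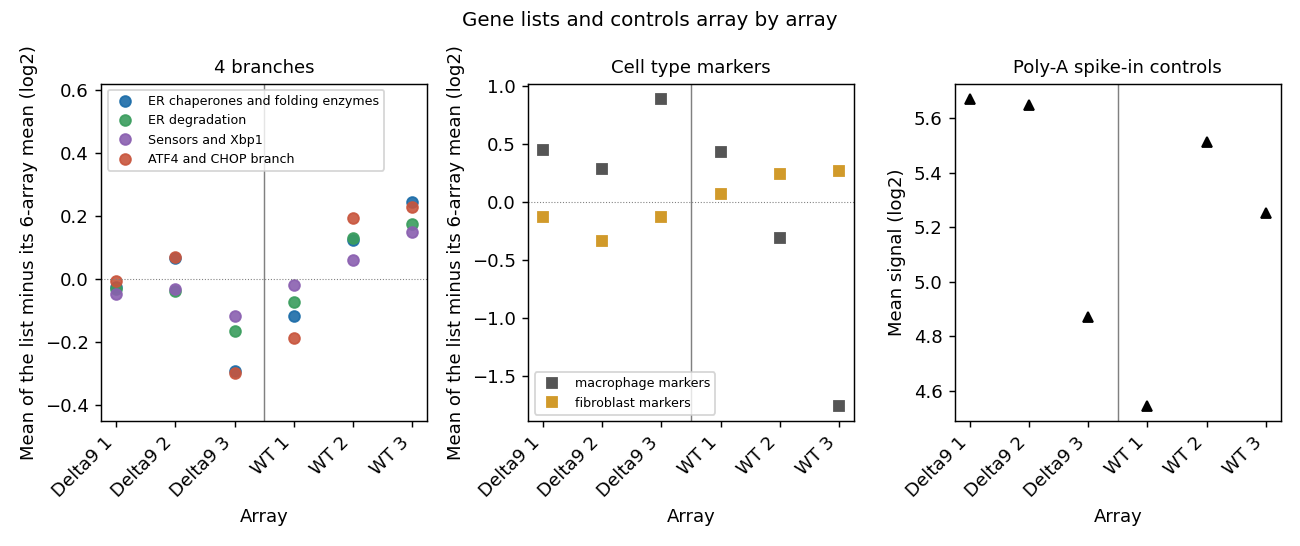
Left, mean of each of the 4 branches on each array relative to its 6-array mean (log2); middle, the same for 16 macrophage and 9 fibroblast markers; right, mean log2 signal of the poly-A spike-in controls. The branches are lowest on Delta9 3 and highest on WT 3, where the macrophage markers are highest and lowest.

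Macrophage markers took the opposite order of the chaperone genes at both ends. All 16 had higher means in Delta9 (median difference 1.08; 0 past the adjusted threshold by limma, 3 at an unadjusted p under 0.05). The dimmest, Itgam, read 4.23, 4.72 and 4.75 in Delta9 and 4.67, 3.83 and 2.81 in WT, the last below the median of its array. Their mean log2 level was 9.80, 9.63 and 10.2 in Delta9 and 9.77, 9.04 and 7.59 in WT. Delta9 replicate 3, with the lowest chaperone mean, had the most macrophage signal, and WT replicate 3, with the highest, had the least. WT replicate 3 also stood apart in array controls: actin signal at the 3′ end minus the 5′ end was 1.41 log2, against 0.51 to 0.86 on the other 5 arrays, and 18S rRNA signal was 8.94, against 9.80 to 10.3. The part of these controls in the differences was not tested. The mean of the macrophage markers differed between the genotypes and was far lowest on WT replicate 3. A fit with this mean as a covariate therefore cannot tell macrophage signal and genotype apart. In that fit the median difference of the 31 genes was 0.06, that of the chaperones 0.11 and that of the ATF4 and CHOP branch 0.11. There 1 gene, Hyou1, had an unadjusted p under 0.05 (background 9.18%, difference -0.48, SE 0.17, limma adjusted p 0.538). No gene of the 31 passed the adjusted threshold there (background 0.0165%). Chac1 differed by -0.36 (SE 0.20) in that fit and Hsp90b1 by -0.16 (SE 0.14).

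With the 2 arrays of low spike-in signal as a block, 12 of the 31 genes had an unadjusted p under 0.05 (background 18.1%), 11 lower and Sdf2l1 higher, and 0 passed the adjusted threshold (limma, background 0.819%). The lowest adjusted p there were 0.0699 for Chac1, 0.0809 for Hsp90b1 and 0.0962 for Hyou1. With those 2 arrays left out, 11 had an unadjusted p under 0.05 (background 16.0%), all lower, and 0 passed the adjusted threshold (limma, background 0.335%). Trib3 had the lowest adjusted p there, followed closely by Dnajb9 (-0.55, limma adjusted p 0.147) and Chac1 (-0.80, limma adjusted p 0.170). Trib3 differed by -0.52 (SE 0.11, limma adjusted p 0.146) and read 7.35 and 7.43 in the 2 Delta9 cultures, against 7.91 and 7.90 in the 2 WT cultures. In these 4 arrays Gapdh control signal at the 3′ end minus that at the 5′ end, a measure of RNA or labelling quality, was 0.25 and 0.23 log2 in Delta9 and 0.49 and 0.51 in WT, so genotype and this measure cannot be told apart within them.

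In the remaining pair, Delta9 replicate 3 minus WT replicate 1, 23 of 31 genes were lower, with a median of -0.20, against -0.18 within the 4 arrays and -0.00 in the pair over all genes. Chac1 differed by -0.80 within the 4 arrays and by -0.76 in the pair, Hsp90b1 by -0.39 and -0.41, Hyou1 by -0.38 in both, and Sdf2l1 by 0.43 and 0.45. Trib3 had opposite signs, -0.52 within the 4 arrays and 0.29 in the pair, and Ddit3 read 0.49 and -0.06. The pair has 1 sample a genotype and allows no test.

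**Figure D4:**
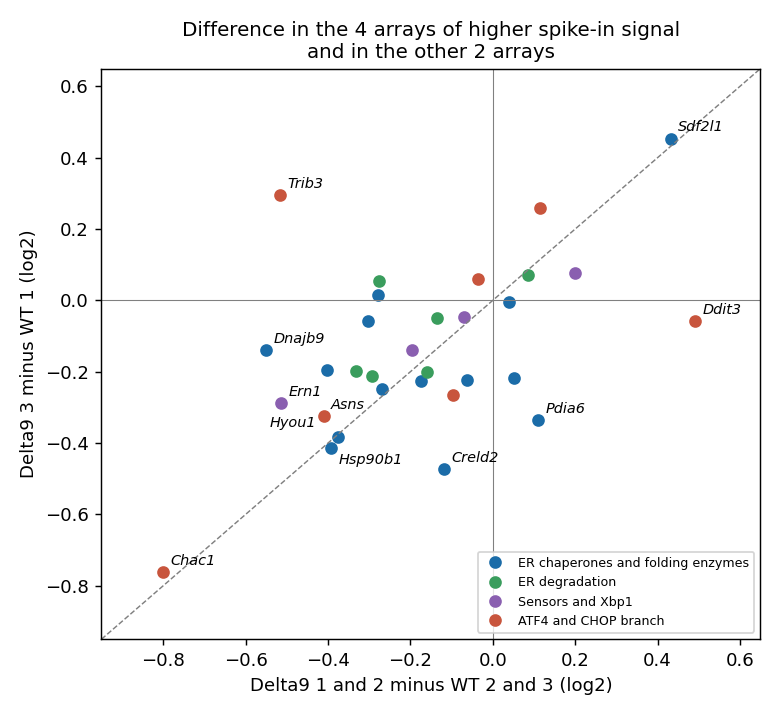
Difference between genotypes (log2) in the 4 arrays of higher spike-in signal (x axis) and in the pair of lower signal (y axis) for each of the 31 genes; the dashed line marks equal values. Chac1, Hyou1, Hsp90b1 and Sdf2l1 lie near the line, while Trib3 and Ddit3 are far from it.

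Several probe sets of the same gene did not give the same answer. Of the 31 genes 23 had more than 1 probe set, and of their 43 other probe sets 26 had the sign of the chosen one and 17 the opposite sign. All probe sets of a gene had 1 sign for 11 of the 23, among them Xbp1 (4 probe sets, -0.21 to -0.08), Calr (3, -0.26 to -0.20), Atf4 (3, -0.19 to -0.08), Asns (-0.51 and -0.38) and Ddit3 (0.31 and 0.36). For Hsp90b1 the dimmer probe set differed by 0.21 (SE 0.41), and for Dnajc3 a nearly as bright one by 0.36 (SE 0.22). Both other probe sets of Hyou1 were dim and had small positive differences of 0.10 and 0.11. The 4 other probe sets of Ern1 were dim too, with differences from -0.14 to 0.24. With probe sets averaged per gene, the differences were -0.10 for Hsp90b1, -0.07 for Dnajc3, -0.07 for Ern1 and -0.06 for Hyou1, and only Chac1 of the 31 had an unadjusted p under 0.05 (background 10.3%). Chac1 had 1 probe set. Among all 74, fitted with all probe sets of the array, 0 passed the adjusted threshold (limma, lowest adjusted p 0.396, background 0.0355%) and 7 had an unadjusted p under 0.05, 5 lower and 2 higher (background 8.94%). The limma adjusted p of 0.396 was that of a dim Eif2ak3 probe set, at 2.76 in Delta9 and 2.38 in WT (log2, difference 0.37, SE 0.10). The other of the 2 higher ones was the dimmer probe set of Sesn2 (0.39, SE 0.15).

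Beyond these 31, 149 of 157 listed genes of the same pathways were measured. Of these 0 passed the adjusted threshold (limma), and 10 lower and 5 higher had an unadjusted p under 0.05, which is 10.1% and near the 10.6% of all genes. Their median difference was -0.07. The 26 other folding and glycosylation genes resembled the chaperones, with 20 lower means and a median of -0.15. Fkbp14 and Fkbp11, prolyl isomerases of the ER, had the lowest p among them: Fkbp14 read 8.14, 8.12 and 7.67 (log2) in Delta9 and 8.32, 8.57 and 8.84 in WT (-0.60, SE 0.19, limma adjusted p 0.365), and Fkbp11 differed by -0.38 (SE 0.14). The translocon and ER exit genes had a median of -0.03 over 31 genes. Sec11c and Spcs2, subunits of the signal peptidase, were both higher in Delta9 without overlap, by 0.47 (SE 0.12, limma adjusted p 0.289) and 0.32 (SE 0.12).

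The 18 other degradation genes had a median of -0.02. Erlec1, a lectin of the degradation machinery, had the lowest adjusted p of all 149 at 0.251 (limma): it read 8.12, 8.02 and 8.22 (log2) in Delta9 and 8.61, 8.57 and 8.84 in WT, a difference of -0.56 (SE 0.13). Rnf5, a membrane ubiquitin ligase, differed by 0.46 (SE 0.16). Among 14 signalling genes (median -0.08), the protease that cleaves ATF6, Mbtps1, differed by -0.30 (SE 0.13) and the membrane-bound factor Creb3l2 by -0.56 (SE 0.29). Among 15 kinases and initiation factors (median -0.00), Oma1, the mitochondrial protease that activates the stress response through DELE1, read 5.94, 6.004 and 6.01 in Delta9 and 5.62, 5.42 and 5.37 in WT (0.51, SE 0.13, limma adjusted p 0.281). Eif2b1, a subunit of the exchange factor eIF2B, differed by 0.34 (SE 0.21).

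The other ATF4 targets had been put in 2 lists by function, and no difference between these lists was tested. The 15 factors and stress outputs had 6 lower and 9 higher means in Delta9, with a median of 0.05 and differences up to 0.77. The lowest in p were 2 of the lower ones. These were the lipoprotein receptor Vldlr at -0.995 (SE 0.28, limma adjusted p 0.302) and the AP-1 family factor Jdp2 at -0.52 (SE 0.16). The 30 genes of amino acid synthesis and transport and tRNA charging had 22 lower means and a median of -0.16. Aldh18a1, an enzyme of proline synthesis, read 8.56, 8.75 and 8.68 (log2) in Delta9 and 9.01, 9.37 and 9.40 in WT (-0.60, SE 0.15, limma adjusted p 0.259). The cystine transporter Slc7a11 was dim, at 2.76 ± 0.07 in Delta9 and 3.06 ± 0.09 in WT (SD, n = 3 each), and differed by -0.29 (SE 0.09). For 21 of these 30 genes (70.0%) Delta9 replicate 3 and WT replicate 1 were the lowest pair, as for Asns and Atf4 above.

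**Figure D5:**
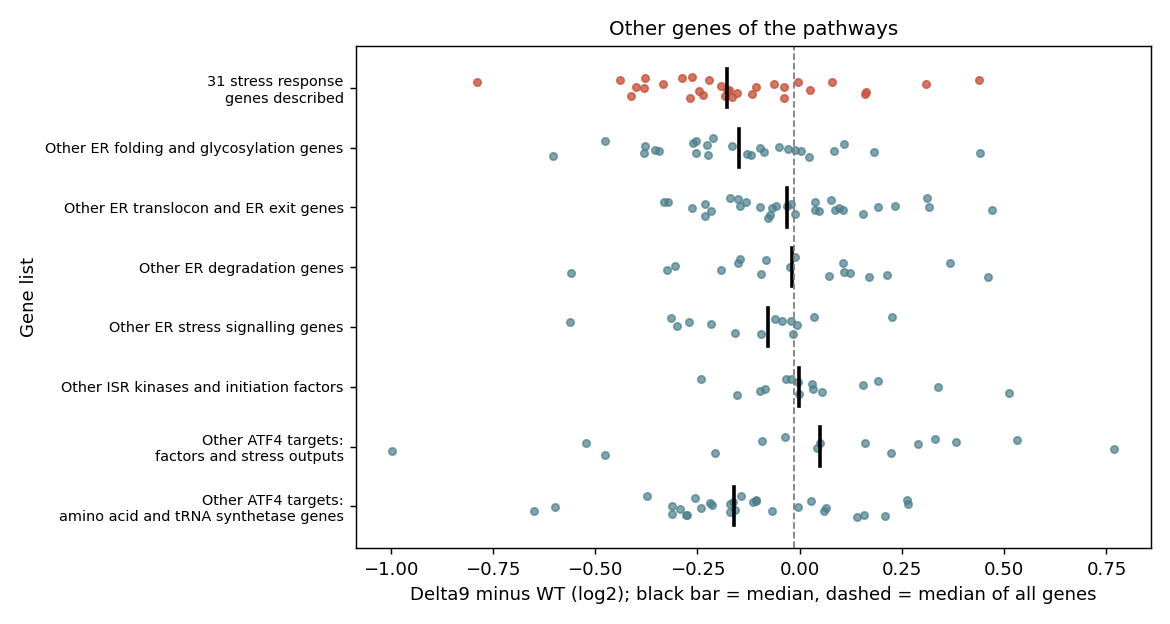
Difference between Delta9 and WT (log2, x axis) of the 31 genes (top, red) and of 149 further genes in 7 lists (blue); each point is a gene, black bars are list medians and the dashed line is the median of all genes at -0.01. List medians run from -0.18 for the 31 genes to 0.05 for the ATF4-induced factors.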

How the data were processed

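RNA of 3 Delta9 and 3 WT cultures was hybridised to Affymetrix arrays, per the labels' protocols. The authors deposited 1 log2 value per probe set; the log base was inferred from the range, and how background, normalization and summarisation were done is not stated in the labels or headers. They were used as deposited, with no filter. Of 45101 probe sets, 64 controls were left out; 34945 of the others had 1 gene symbol in the platform annotation, 932 had several and 9160 are unnamed here. Each of 18193 genes was read from its probe set of highest mean. Delta9 was compared with WT in limma 3.58.1 (R 4.3.3, lmFit and eBayes with trend), with Benjamini-Hochberg adjustment over all genes and a threshold of 0.05; the model was tested on simulated data. The number of arrays, 3 a group, limits the precision. The members and lists were chosen with earlier results of these data known.

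Values of every array are given for the 3 genes of lowest p in each branch and for Hspa5, Xbp1, Atf4 and Ddit3. Other pathway genes named are the 2 of lowest p in each list. The set of 4549 brightest genes and the second stress element were chosen after values were seen, as were other members singled out. No protein sequences were used. The alternatives were other choices of probe set, other variance priors, array weights, blocks, quantile normalization, a filter on dim genes, a macrophage covariate and leaving out each sample.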

Additional observations from a re-analysis of the deposited data

How the results depend on the processing

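No stress response gene and no other pathway gene passed the adjusted threshold in any setting run with limma, while the count over all 18193 genes, 11 as reported, was 139 with array weights, 149 with the spike-in block, 61 in the 4 arrays, 3 with the macrophage covariate, 48 at an adjusted p of 0.1 and from 1 (without WT replicate 2) to 81 (without Delta9 replicate 3) with a sample left out. Deviations of same-numbered samples from their group means correlated at -0.40, 0.17 and -0.43. With 3 arrays a group, these correlations cannot show whether the replicate numbers pair the samples. With the replicate number as a block 0 genes passed over all genes and 2 of the 31 had an unadjusted p under 0.05. That count, 5 as reported, was 1 with probe sets averaged per gene, 3 without _x_at and _s_at probe sets, 12 with the spike-in block, 11 in the 4 arrays, 1 with the macrophage covariate and 1 to 6 with a sample left out. The share of all genes at that p was not computed for the replicate block or without _x_at and _s_at probe sets. The counts in those settings therefore have no background to be read against. With the macrophage covariate the medians were 0.062 for the 31 genes, 0.11 for chaperones, -0.0355 for degradation, -0.0161 for sensors, 0.11 for the ATF4 and CHOP branch and 0.12 for other pathway genes; with the mean of probe sets they were -0.0157 for degradation and 0.0131 for sensors. Leaving out a sample gave medians of -0.29 to -0.05 for the 31 genes, -0.33 to -0.04 for chaperones, -0.19 to -0.09 for degradation, -0.18 to -0.08 for sensors, -0.30 to 0.05 for the ATF4 and CHOP branch and -0.18 to 0.02 for other pathway genes. Signs turned with the macrophage covariate for Hspa5 (0.10), Calr (0.0224), Canx (0.11), Pdia3 (0.37), Pdia4 (0.14), Pdia6 (0.23), Manf (0.21), Creld2 (0.27), Syvn1 (0.0622), Herpud1 (0.29), Eif2ak3 (0.0228), Atf4 (0.14), Ddit3 (-0.0911), Trib3 (0.11), Asns (0.0175) and Sesn2 (0.30). They turned without _x_at and _s_at probe sets for Hyou1 (0.10), Syvn1 (0.0082), Derl1 (0.18) and Fkbp11 (0.10), with the mean of probe sets for Sel1l (0.034), Derl1 (0.0177), Eif2ak3 (0.0926) and Sesn2 (0.19), with array weights for Pdia3 (0.0418), Pdia6 (0.0889), Edem1 (-0.0014), Eif2ak3 (0.0007) and Sesn2 (0.11), and in the 4 arrays for Pdia3 (0.0522) and Pdia6 (0.11). With a sample left out, signs turned within -0.24 to 0.0585 for Hspa5, -0.14 to 0.21 for Dnajb11, -0.27 to 0.28 for Pdia3, -0.17 to 0.22 for Pdia6, -0.39 to 0.0172 for Manf, -0.46 to 0.11 for Creld2, -0.57 to 0.0038 for Herpud1, -0.16 to 0.0202 for Eif2ak3, -0.30 to 0.0503 for Atf4 and -0.12 to 0.17 for Sesn2. The cause was not tested. The other 10 of the 31 genes (Chac1, Hsp90b1, Dnajc3, Dnajb9, Sdf2l1, Derl3, Ern1, Atf6, Xbp1 and Ppp1r15a) had 1 sign in every setting, but not 1 size: with probe sets averaged, Hsp90b1 was -0.0971, Dnajc3 -0.0719 and Ern1 -0.0663. The other variance priors, the blocks and the filter on dim genes could not change a difference, only its error or p. Chac1, Dnajb9, Sdf2l1, Derl3 and Ppp1r15a have 1 probe set each, so other choices of probe set could not change theirs.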
